A study of Mus musculus with 6 samples.

Results

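The 8 genes described here encode the receptors and signal transducers through which B cells respond to sphingosine-1-phosphate (S1P): the receptors S1pr1, S1pr2, S1pr3 and S1pr4, the receptor-binding membrane protein Cd69, the G protein α subunits Gna13 and Gnai2, and Arhgef1, a guanine nucleotide exchange factor. They were chosen by name, with earlier results of these data known. All 8 were found among the 39179 Ensembl gene identifiers with an expression value. RNA-Seq was performed on germinal center (GC) B cells, sorted as Fas+GL7+, and resting or naive B cells, sorted as Fas-GL7-, of Peyer's patches. These patches are lymphoid tissue in the wall of the small intestine. Both populations came from 12-wk-old female WT littermates of the C57BL/6 strain, and no transgene, deletion or treatment is named for either. Each population was measured in 3 replicates, and every replicate was a pool of several mice, so that differences between single animals were not observed. Because Fas was used for sorting, its level only checks the sort.

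S1P is a lipid that is abundant in blood and lymph and scarce within lymphoid tissue. S1PR1 signals through Gαi proteins and draws lymphocytes toward S1P and out of lymphoid organs. S1PR2 signals through Gα12 and Gα13 to ARHGEF1, which activates RhoA and inhibits migration, and this pathway keeps GC B cells confined to the GC. CD69 binds S1PR1 and removes it from the cell surface. Loss of the S1PR2 and Gα13 pathway is known to let GC B cells leave the GC, and GNA13 is recurrently mutated in GC-derived lymphomas.

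Values are given as TPM, the share of a gene among 1000000 transcripts, which are scaled for transcript length so that genes can be compared within a pool. Comparisons between pools depend on the scaling, and other scalings were also computed. TPM was obtained by dividing the deposited FPKM by the total of each pool and multiplying by 1000000. Estimated from the steps between low values, depth was between about 9600000 and 15900000 reads per pool. Differences between populations were tested with limma on log2(TPM + 1) over the 12785 genes with 1 TPM or more in 3 or more pools. A gene was called where its p, adjusted by the Benjamini-Hochberg method, was under 0.05, and each difference is GC minus naive. All 8 genes passed this filter, S1pr2 only through its high level in the GC pools. The labels fit their markers: the GC markers Bcl6, Fas, Mki67 and Mybl1 were called higher in GC B cells, and the naive markers Fcer2a, Ccr6 and Cd38 were called higher in naive B cells. Fas was at 114 ± 5.55 TPM in GC B cells and 3.22 ± 0.314 TPM in the naive population (SD, n = 3 pools each).

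All 8 genes were called, 4 higher in GC B cells (S1pr2, S1pr3, Gna13 and Gnai2) and 4 higher in naive B cells (S1pr1, S1pr4, Cd69 and Arhgef1). The background was high, since 65.6% of all genes tested were called, 35.5% with more in GC and 30.1% with more in naive B cells. For 6 of the 8 genes the difference was at least 1 on the log2 scale, a size that 25.4% of all genes tested reached with a call. The pools of the 2 populations did not overlap for any of the 8 genes, which was the case for 70.7% of all genes tested. The call of Gnai2 depended on the scaling between pools (see its values), and the other 7 calls held in every alternative computed. In bulk samples such as these, fewer cells that express a gene and less RNA per cell cannot be told apart.

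**Figure D1:**
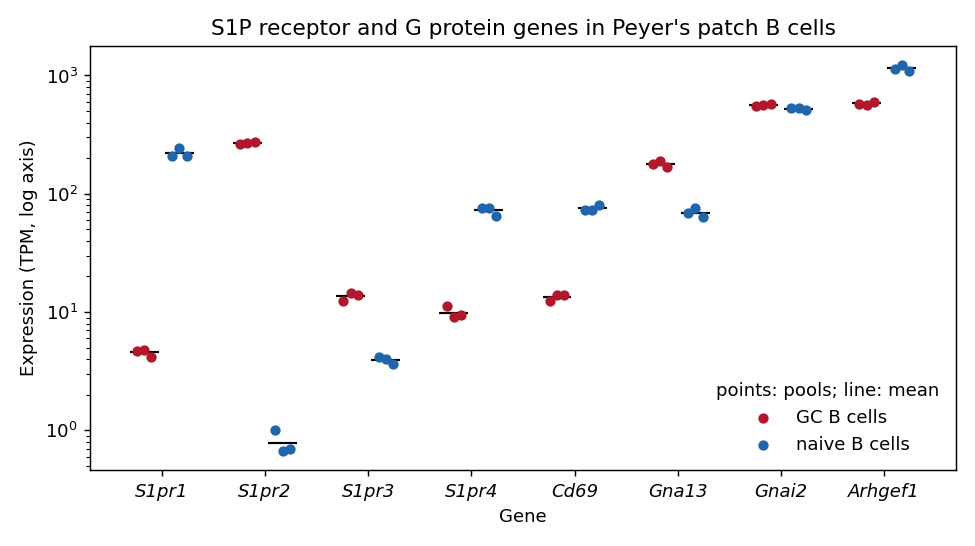
Expression of the 8 genes in TPM (log axis) in the 3 GC pools (red) and the 3 naive pools (blue), with 1 point per pool and a line at the mean. S1pr1 and S1pr2 exchange places, from 4.57 and 268 TPM in GC to 222 and 0.789 TPM in naive B cells, while Gnai2 stays between 512 and 570.2 TPM in all pools.

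S1pr2 (ENSMUSG00000043895; chromosome 9, from 20965952 to 20976793, GRCm38) is the receptor that couples to Gα12 and Gα13. Its level was 261, 269.6 and 272 TPM in GC replicates 1, 2 and 3 and at 0.999, 0.671 and 0.697 TPM in naive replicates 1, 2 and 3. The GC pools were close to each other and all far above the naive pools, where the gene was near the lower end of detection. Its mean was 268 ± 5.73 TPM in GC B cells and 0.789 ± 0.182 TPM in the naive population (SD, n = 3 each), a ratio of 339. The log2 difference was 7.24 (SE 0.0892, adjusted p = 7.61e-08 in limma), larger in size than that of 99.9% of the genes tested. With the depth estimated above and its single annotated transcript of 2815 bases, the naive values correspond to about 22.6, 20.5 and 13.7 reads and the GC values to about 5401, 5083 and 5204 reads. The ratio is therefore limited in precision by the naive pools, whose coefficient of variation was 23.1% against 2.14% in the GC pools.

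S1pr1 (ENSMUSG00000045092; chromosome 3, from 115710433 to 115715055) is the receptor for egress and moved the opposite way. GC replicates 1, 2 and 3 had 4.71, 4.78 and 4.21 TPM, whereas naive replicates 1, 2 and 3 had 211, 245 and 209.7 TPM. All naive pools were high and all GC pools low, and naive replicate 2 was the highest. Mean levels were 4.57 ± 0.311 TPM for GC and 222 ± 20.3 TPM for naive B cells (SD, n = 3 each), 48.6 times higher in naive B cells. The log2 difference was -5.32 (SE 0.0858, adjusted p = 1.36e-07 in limma).

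S1pr4 (ENSMUSG00000044199; chromosome 10, from 81497745 to 81500137), a receptor found mainly on hematopoietic cells, went with S1pr1. The GC pools had 11.2, 9.04 and 9.39 TPM, the naive pools 76.0, 75.8 and 65.2 TPM. Naive pools exceeded GC pools throughout, with means of 72.3 ± 6.17 and 9.88 ± 1.16 TPM (SD, n = 3 each) and a ratio of 7.32. The difference on the log2 scale was -2.75 (SE 0.104, adjusted p = 2.24e-06 in limma).

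S1pr3 (ENSMUSG00000067586; chromosome 13, from 51408618 to 51422797), which is known from marginal zone B cells and from vascular cells, was weakly expressed and higher in GC B cells. Its values were 12.4, 14.5 and 13.9 TPM in GC and 4.16, 4.05 and 3.61 TPM in naive B cells. Both populations had narrow ranges that did not meet. Means of 13.6 ± 1.05 and 3.94 ± 0.288 TPM (SD, n = 3 each) differed 3.45 times, with a log2 difference of 1.56 (SE 0.103, adjusted p = 2.60e-05 in limma). The remaining member of the receptor family, S1pr5, which is known from natural killer cells, was listed at 0 in all 6 pools.

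Whether the sum of the receptors differed depended on the scaling between pools. Summed over S1pr1, S1pr2, S1pr3 and S1pr4, receptor transcripts came to 289.7, 298 and 299.9 TPM in the GC pools and to 292, 326 and 279 TPM in the naive pools. GC values lay within the naive range (means 296 ± 5.37 and 299 ± 24.2 TPM, SD, n = 3 each; two-sided exact permutation test, p = 0.9), and the sign of the difference turned when naive replicate 2 was left out (10.4 TPM, against -3.12 TPM with all pools). With the FPKM as deposited, however, every GC pool had a lower sum than every naive pool (difference -9.95 FPKM, p = 0.1 in the same exact test, the smallest possible), and scaling by median ratios gave a difference of -11.8 (p = 0.2 in the exact test). The composition of the sum was nearly inverted. S1pr2 made up 90.2%, 90.5% and 90.8% of it in the GC pools and between 0.206% and 0.342% in the naive pools. The share of S1pr1 was 1.63%, 1.60% and 1.40% in GC and 72.2%, 75.3% and 75.1% in naive B cells. S1pr4 contributed 3.34% ± 0.455 in GC and 24.2% ± 1.58 in naive B cells, and S1pr3 4.59% ± 0.285 and 1.32% ± 0.0940 (SD, n = 3 pools each). Each of the 4 shares differed without overlap between the pools, with p = 0.1 in the two-sided exact permutation test, which is the smallest value that 3 against 3 pools can give.

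**Figure D2:**
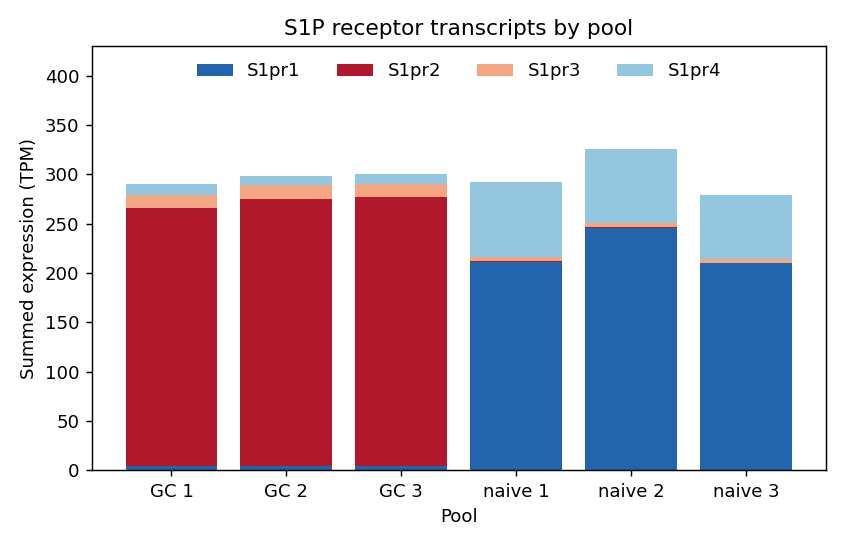
Summed TPM of the 4 S1P receptors in each pool (bars from 0), with the contribution of each receptor stacked. The total lies between 279 and 326 TPM in all 6 pools, while S1pr2 (dark red) fills at least 90.2% of every GC bar and S1pr1 (dark blue) at least 72.2% of every naive bar.

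Within a pool, the log2 ratio of S1pr2 to S1pr1, computed from TPM + 1, depends on the scaling between pools only through the added 1. It was 5.52, 5.55 and 5.71 in the GC pools and -6.73, -7.20 and -6.96 in the naive pools. The sign was thus opposite in the 2 populations in 3 of 3 pools each, with a difference of 12.6 between the means (two-sided exact permutation test, p = 0.1, the smallest possible).

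Promoter sequences were examined because 2 receptors were higher in GC B cells and 2 in naive B cells, and because Klf2, whose product activates S1pr1, differed strongly (values below). The RefSeq promoter table (GRCm38.p6) held sequences for 5 of the 8 genes, S1pr2, S1pr3, S1pr4, Gna13 and Arhgef1. The 250 bases before the transcription start of 3 receptors and of Gna13 are shown in the direction of transcription, and capitals mark CACCC or its reverse complement GGGTG, the short core that KLF factors recognize.
S1pr2 promoter, chr9:20976794-20977043, minus strand: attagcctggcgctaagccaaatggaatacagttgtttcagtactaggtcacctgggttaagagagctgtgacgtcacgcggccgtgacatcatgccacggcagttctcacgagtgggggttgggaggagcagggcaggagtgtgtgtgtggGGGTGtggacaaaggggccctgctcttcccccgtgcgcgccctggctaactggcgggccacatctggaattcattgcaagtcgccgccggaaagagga
S1pr3 promoter, chr13:51408368-51408617, plus strand: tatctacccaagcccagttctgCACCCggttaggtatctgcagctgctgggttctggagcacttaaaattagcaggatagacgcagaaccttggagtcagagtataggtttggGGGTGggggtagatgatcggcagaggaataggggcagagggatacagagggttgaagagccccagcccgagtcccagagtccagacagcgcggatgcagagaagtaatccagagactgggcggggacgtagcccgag
S1pr4 promoter, chr10:81500138-81500387, minus strand: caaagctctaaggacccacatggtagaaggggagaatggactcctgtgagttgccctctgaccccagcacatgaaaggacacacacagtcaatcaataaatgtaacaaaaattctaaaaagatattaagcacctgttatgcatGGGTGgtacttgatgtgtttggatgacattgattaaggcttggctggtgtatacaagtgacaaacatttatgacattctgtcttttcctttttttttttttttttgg
Gna13 promoter, chr11:109362544-109362793, plus strand: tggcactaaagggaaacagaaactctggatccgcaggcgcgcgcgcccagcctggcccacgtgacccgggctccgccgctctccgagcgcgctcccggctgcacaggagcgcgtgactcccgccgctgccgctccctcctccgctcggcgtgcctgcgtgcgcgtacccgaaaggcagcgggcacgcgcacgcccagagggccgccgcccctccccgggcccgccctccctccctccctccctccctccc

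Read on both strands, CACCC occurred once in S1pr2 and S1pr4, 2 times in S1pr3 and not in Gna13. Among receptors higher in naive B cells, only S1pr4 could be examined, because no promoter sequence was held for S1pr1. Whether CACCC follows the direction of the receptors can therefore not be told. CACCC was present in 52.0% of the 32851 promoters of the table over the same 250 bases. GGGCGG, the GC box, occurred 2 times in Gna13 and once in S1pr3 (32.7% of all promoters had it), and CAGGTG, an E box, occurred once in S1pr2 and once in S1pr4 (17.2%). Neither the FOXO motif GTAAACA (3.17% of all promoters) nor the octamer ATGCAAAT (1.60%) was found in the 4 sequences. The GC content was 59.2% for S1pr2, 56.4% for S1pr3, 38.8% for S1pr4 and 76.0% for Gna13. Arhgef1 promoters 1 and 2, whose sequences are not shown, had 1 and 0 matches to CACCC and 4 and 1 to the GC box. Their GC content was 70.8% and 62.4%. These matches are a description of letters and not of binding.

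Cd69 (ENSMUSG00000030156; chromosome 6, from 129267324 to 129275375), whose product removes S1PR1 from the surface, was higher in the population with more S1pr1. GC replicates had 12.4, 14.0 and 14.0 TPM and naive replicates 72.9, 72.3 and 80.8 TPM. Every naive pool was above every GC pool. Mean levels were 13.5 ± 0.923 TPM for GC and 75.3 ± 4.73 TPM for naive B cells (SD, n = 3 each), 5.58 times higher in naive B cells. The log2 difference was -2.40 (SE 0.0777, adjusted p = 1.19e-06 in limma). CD69 acts on the S1PR1 protein, which was not measured.

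Gna13 (ENSMUSG00000020611; chromosome 11, from 109362794 to 109401369) encodes Gα13, the subunit that links S1PR2 to ARHGEF1. Its GC values were 179.9, 191 and 169 TPM, and its naive values were 69.2, 75.9 and 63.0 TPM. The GC pools were the higher ones without overlap, at 180.1 ± 10.8 against 69.4 ± 6.43 TPM (SD, n = 3 each), a ratio of 2.60. This corresponds to a log2 difference of 1.37 (SE 0.0812, adjusted p = 1.65e-05 in limma).

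Gnai2 (ENSMUSG00000032562; chromosome 9, from 107614125 to 107635391), which encodes a Gαi subunit that transmits S1PR1 and chemokine receptor signals, was nearly the same in both populations. The GC pools had 553, 568 and 570.2 TPM and the naive pools had 527, 535 and 512 TPM. Means of 564 ± 9.14 and 525 ± 11.5 TPM (SD, n = 3 each) differed 1.07 times, with a log2 difference of 0.10 (SE 0.0355, 95% interval 0.017 to 0.189, adjusted p = 0.0402 in limma). This call was lost with the FPKM as deposited (log2 difference 0.051, adjusted p = 0.227) and with scaling by median ratios (0.059, adjusted p = 0.183), and the sign turned under quantile normalization (-0.031, adjusted p = 0.380). The direction of Gnai2 is therefore not settled by these data.

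The 2 α subunits thus moved unequally. Within a pool, the log2 ratio of Gna13 to Gnai2 was -1.62, -1.57 and -1.74 in GC and -2.91, -2.80 and -3.00 in naive B cells. Gnai2 transcripts exceeded Gna13 transcripts in all 6 pools, and the ratio was higher in every GC pool by 1.26 on average (two-sided exact permutation test, p = 0.1, the smallest possible).

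Arhgef1 (ENSMUSG00000040940; chromosome 7, from 24902986 to 24926594) encodes the exchange factor downstream of Gα13 and was the most abundant of the 8 transcripts in naive B cells. It was at 574, 566 and 601 TPM in GC and at 1137, 1221 and 1089 TPM in naive B cells. In contrast to S1pr2 and Gna13, its GC pools all lay below its naive pools. The means of 581 ± 18.4 and 1149 ± 66.8 TPM (SD, n = 3 each) differed 1.98 times, with a log2 difference of -0.98 (SE 0.0528, adjusted p = 1.04e-05 in limma). The annotation used here for transcript lengths lists 16 transcripts for this gene, and 2 each for S1pr1, Gna13 and Gnai2. It is not the annotation behind the deposited values, and how reads were divided among transcripts was not examined.

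**Figure D3:**
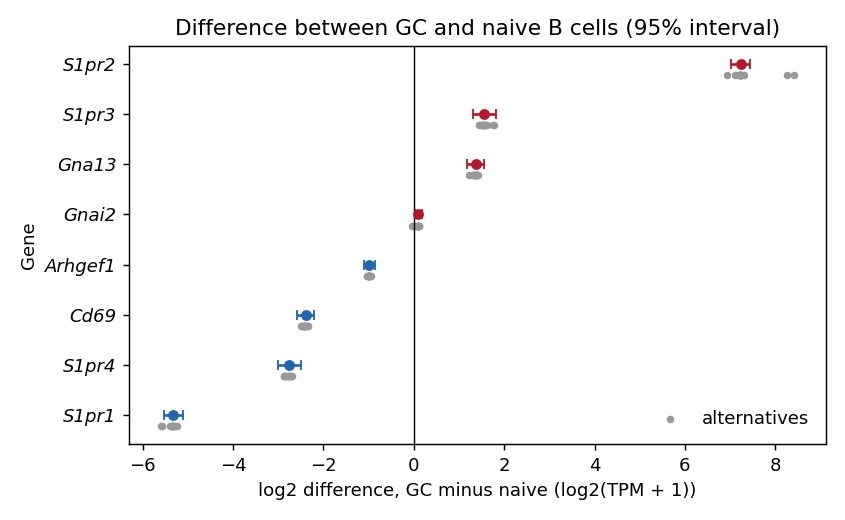
Log2 difference, GC minus naive, of each gene on the log2(TPM + 1) scale with its 95% interval (red, higher in GC; blue, higher in naive), and the values under the alternatives below it (grey). The 7 genes other than Gnai2 lie away from 0 in all alternatives, from -5.60 for S1pr1 to 8.41 for S1pr2, and Gnai2 falls on either side of 0.

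The order of levels differed between the populations. In GC B cells it ran from Arhgef1 and Gnai2, whose pools overlapped, through S1pr2 and Gna13 to S1pr3 and Cd69, which also overlapped, and then to S1pr4 and S1pr1. In naive B cells the order was Arhgef1, Gnai2, S1pr1, then Cd69, S1pr4 and Gna13, of which neighbours overlapped, and finally S1pr3 and S1pr2. The other neighbours were separated in all 3 pools. S1pr2 was thus last in naive B cells and S1pr1 last in GC B cells.

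For 4 of the genes, the 3 genes with the most similar pattern were found by the root mean square difference of log2(TPM + 1) over the 6 pools after centring each gene, a measure that is governed mostly by the difference between the populations. Nearest to S1pr2 were Gm600 (0.0715), the proliferation marker Mki67 (0.123) and 2810417H13Rik (0.142). Mki67 was at 228 ± 1.04 TPM in GC B cells and 0.785 ± 0.107 TPM in the naive population. Nearest to S1pr1 were the exchange factor gene Arhgef18 (0.0805), Pml (0.107) and Rnf144a (0.114). Arhgef18 was at 2.09 ± 0.0786 TPM in GC B cells and 121 ± 7.83 TPM in the naive population (SD, n = 3 each). For Cd69 the nearest were Slc16a7 (0.0677), Cyp2d22 (0.0721) and Faim3 (0.0799), and for Gna13 the nuclear pore gene Nup107 (0.0400), the deadenylase gene Cnot6 (0.0409) and Synrg (0.0425). Slc16a7 and Cyp2d22 had means of only 0.0833 and 0.0556 TPM in GC B cells, against 4.88 and 4.48 TPM in the naive population. Rnf144a was at 0.249 and 42.4 TPM. For such weakly expressed genes the added 1 understates the difference. Their likeness to Cd69 and S1pr1 therefore holds for log2(TPM + 1) and not for ratios of TPM.

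Other genes of the pathway were taken from lists that were also chosen with earlier results of these data known. The lists held 62 genes with S1pr5, of which 61 were matched and 51 passed the filter, some of them only through the population in which they are high. Of these, 13 were called higher in GC B cells, 27 were called higher in the naive population, and 11 were not called, where 35.5% and 30.1% of all genes tested were called in these directions. The number called higher in naive B cells lay between 22 (no filter) and 33 (quantile normalization) over the alternatives. The median log2 difference over the 51 genes was -0.25, against 0.031 over all genes tested.

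Upstream of S1pr1, Klf2, the transcription factor that activates it, had 4.29, 5.02 and 3.18 TPM in GC replicates and 241, 321 and 299 TPM in the naive pools. The naive pools were far higher, with a log2 difference of -5.81 (SE 0.165, adjusted p = 6.96e-07 in limma), close in size to that of S1pr1. Foxo1, which acts upstream of Klf2 in lymphocytes, was at 82.7 ± 2.82 TPM in GC B cells and 88.5 ± 5.42 TPM in the naive population and was not called (log2 difference -0.10, adjusted p = 0.212 in limma), although it was called lower in GC B cells under each of the 3 other scalings.

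Among the genes that make, degrade and transport S1P, enzymes common to both populations differed little and a few genes differed strongly. Sphk2, a sphingosine kinase, was at 24.2 ± 0.930 TPM in GC B cells and 28.1 ± 2.14 TPM in the naive population (adjusted p = 0.0490 in limma), while Sphk1 was below 1 TPM in all pools and was not tested. The call of Sphk2 was lost in several alternatives. Of 6 breakdown genes, 5 were tested, 1 of them higher in GC B cells (background 35.5%) and 4 in naive B cells (background 30.1%). Ppap2a passed the filter only through its GC pools and Ppap2b only through its naive pools, so these counts are a description. The 4 became 2 with no filter and without GC replicate 1, GC replicate 3, naive replicate 1 or naive replicate 2. The S1P lyase gene Sgpl1 and the phosphatase gene Sgpp1 were modestly higher in naive B cells (log2 differences -0.31 and -0.22), calls that were also lost in several alternatives. The lipid phosphate phosphatases diverged. Ppap2a was at 30.2, 29.6 and 27.6 TPM in GC and at 0.608, 0.808 and 0.917 TPM in naive B cells (log2 difference 4.09, SE 0.108, adjusted p = 5.55e-07 in limma). Ppap2b was at 0.106 ± 0.0289 TPM in GC B cells and 7.25 ± 0.671 TPM in the naive population (log2 difference -2.90), and Ppap2c at 2.85 ± 0.470 and 5.53 ± 0.188 TPM (-0.77). Sgpp2 was at 0.379 ± 0.110 TPM in GC B cells and 1.14 ± 0.435 TPM in the naive population and was not tested.

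Spns2, an S1P exporter, was at 0.689, 0.858 and 0.460 TPM in GC and at 29.1, 28.9 and 23.8 TPM in naive B cells. The naive pools were higher without overlap, with a log2 difference of -4.08 (SE 0.139, adjusted p = 1.42e-06 in limma). Spns2 passed the filter only through these naive pools. The S1P carrier gene Apom was low and higher in GC B cells (1.78 ± 0.509 against 0.474 ± 0.350 TPM, adjusted p = 0.0128 in limma). Apom passed the filter only through its GC pools, and its call was lost with no filter (adjusted p = 0.0998 in limma). The exporter gene Mfsd2b was at 0.958 ± 0.619 and 0.921 ± 0.414 TPM and was not tested.

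Of the 4 genes for receptor internalization, Arrb1 (β-arrestin) was at 3.58 ± 0.936 TPM in GC B cells and 28.1 ± 0.770 TPM in the naive population (log2 difference -2.69, adjusted p = 1.46e-05 in limma), and Dnm2 (dynamin) was at 105 ± 9.02 and 140.9 ± 16.2 TPM (-0.42). Adrbk1, the receptor kinase GRK2 that phosphorylates S1PR1, and Arrb2 were not called (log2 differences -0.088 and -0.076), although Adrbk1 was called lower in GC B cells under each of the 3 other scalings and Arrb2 under quantile normalization.

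G protein subunits beyond Gna13 and Gnai2 showed calls in both directions for the α subunits and in 1 direction for the β subunits. Gna12, the close relative of Gna13 in the same pathway, was at 48.4, 54.0 and 54.5 TPM in GC and at 19.6, 19.6 and 18.0 TPM in naive B cells. All GC pools were the higher ones (log2 difference 1.41, SE 0.0738, adjusted p = 9.43e-06 in limma), a size near that of Gna13. Gnaz, a Gαi family member, was at 39.8, 39.1 and 39.3 TPM in GC, whereas in naive B cells it was at 0.108 and 0.0387 TPM in replicates 1 and 3 and listed at 0 in replicate 2 (log2 difference 5.27, adjusted p = 1.89e-07). Gna15, a Gαq family member, was at 2.44 ± 0.887 TPM in GC B cells and 21.0 ± 1.18 TPM in the naive population (log2 difference -2.71). Over the 10 other α subunits, 7 were tested, 3 had more in GC (background 35.5%), 1 had more in naive B cells (background 30.1%) and 3 were not called. Of the 3 not called, 2 were called higher in naive B cells under other scalings. Gnaz passed the filter only through its GC pools, so these counts are a description.

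The 4 β subunit genes that passed the filter were called higher in GC B cells, also under every scaling. The background for this direction was 35.5%, but Gnb4 and Gnb5 passed only through their GC pools, so the count is a description. Gnb4 was at 36.5 ± 2.13 TPM in GC B cells and 0.925 ± 0.324 TPM in the naive population (log2 difference 4.30), and Gnb5 at 6.49 ± 0.470 and 0.204 ± 0.0835 TPM (2.64). The abundant Gnb1 and Gnb2 differed less, by 0.48 and 0.35. Gnb3 was at 1.24, 0.512 and 1.07 TPM in GC, was listed at 0 in the naive pools and was not tested.

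Downstream of Gα12 and Gα13, 13 genes of this arm were tested, of which 2 had more in GC (background 35.5%), 8 had more in naive B cells (background 30.1%) and 3 were not called. The 8 became 7 with the replicate block and without 4 of the single pools (each GC replicate and naive replicate 1). The exchange factor gene Arhgef12, a relative of Arhgef1, went the other way from it, at 15.5, 14.5 and 15.4 TPM in GC and at 3.52, 3.50 and 2.90 TPM in naive B cells (a ratio of means of 4.56, adjusted p = 1.02e-05 in limma). Even so, Arhgef1 was the most abundant of the 3 related exchange factors in both populations, since Arhgef11 was at 8.45 ± 0.930 TPM in GC B cells and 13.6 ± 1.13 TPM in the naive population. Rhoa itself was at 356 ± 1.37 TPM in GC B cells and 382 ± 2.12 TPM in the naive population (log2 difference -0.10, adjusted p = 0.0295 in limma). Rhob (log2 difference -1.55) and the myosin light chain gene Myl12b (-2.38) were the 2 genes of the arm with the largest excess in naive B cells. Myl12b was at 136, 155 and 122 TPM in GC and at 707, 724 and 714 TPM in naive B cells.

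Downstream of Gαi, 6 genes of the Rac and PI3K arm were tested, 2 of them higher in GC B cells (background 35.5%) and 4 in naive B cells (background 30.1%). Pik3r5 passed the filter only through its naive pools, so these counts are a description. The genes with more in GC B cells were Elmo1, a partner of Rac exchange factors (log2 difference 0.66), and Rac1 (0.33). Pik3r5, a regulatory subunit of PI3Kγ, was at 1.02 ± 0.129 TPM in GC B cells and 15.7 ± 0.328 TPM in the naive population (log2 difference -3.05, adjusted p = 1.34e-06 in limma). Dock2, the Rac exchange factor of lymphocytes, differed by -0.49 and Rac2 by -0.19.

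The 7 receptors for other lysolipids, several of which share Gα13 with S1PR2, contained no gene that was called higher in GC B cells (background 35.5%). In naive B cells, 5 were called higher, where the background for this direction was 30.1%. This count was 4 with no filter and 6 under each of the 3 other scalings. Gpr34 and Lpar6 passed the filter only through their naive pools, so the counts are a description. The lysophosphatidylserine receptor gene P2ry10 was at 15.5, 16.1 and 17.2 TPM in GC and at 80.5, 79.0 and 74.8 TPM in naive B cells (log2 difference -2.20, adjusted p = 7.64e-07 in limma). Gpr174 was at 1.61 ± 0.200 TPM in GC B cells and 57.9 ± 8.61 TPM in the naive population (-4.49), Gpr132 at 2.12 ± 0.730 and 52.5 ± 3.66 TPM (-4.12), and Lpar6 at 1.14 ± 0.344 and 17.2 ± 0.122 TPM (-3.10).

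**Figure D4:**
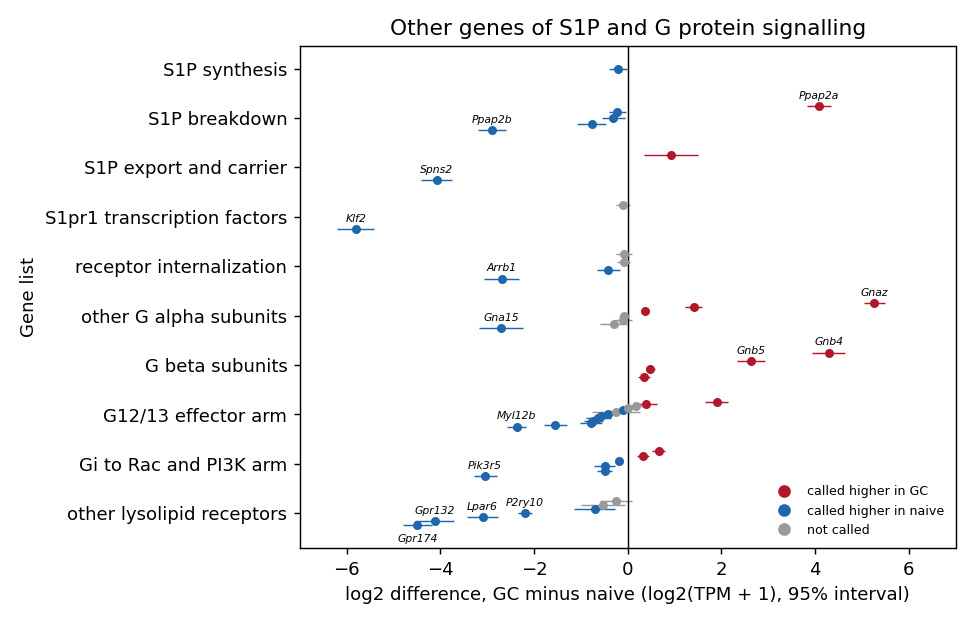
Log2 difference, GC minus naive, with its 95% interval for the 51 tested genes of 10 pathway lists, red for genes called higher in GC, blue for genes called higher in naive B cells and grey for genes not called. Names are printed for differences of at least 2, from -5.81 for Klf2 to 5.27 for Gnaz; all 4 β subunit genes lie to the right of 0 and all 7 other lysolipid receptors to the left.

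Markers of other cells were measured because endothelial, stromal, T and natural killer cells also express S1P receptors. Kdr and Cldn5 (endothelium) were listed at 0 in all pools, Tek did not exceed 0.027 TPM and Cdh5 did not exceed 1.05 TPM. Pecam1, the fifth gene of that list, which B cells also express, was at 23.3 ± 1.22 TPM in GC B cells and 126 ± 5.55 TPM in the naive population. The sum of the 4 stromal markers was at most 0.429 TPM, that of the 7 T cell markers at most 4.22 TPM and that of the 4 natural killer cell markers at most 1.27 TPM in any pool. The 6 epithelial markers summed to between 35.6 and 65.6 TPM in GC and to between 106 and 138 TPM in naive B cells. Of these markers, 4 were called higher in naive B cells (background 30.1%), 1 (Krt18) higher in GC B cells (background 35.5%), and none was at 0. The epithelial sum thus moved with S1pr1, S1pr4, Cd69 and Arhgef1, and the part of epithelial RNA in these genes was not tested. The 6 myeloid markers summed to at most 2.31 TPM in GC B cells and at most 7.07 TPM in naive B cells, and S100a8 was listed at 0 in all pools. Plasma cell markers were low, with Sdc1 at 1.51 ± 0.527 and 3.19 ± 0.526 TPM, Prdm1 at 5.01 ± 0.280 and 0.955 ± 0.107 TPM, and Tnfrsf17 listed at 0 in 5 of 6 pools.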

How the data were processed

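GC and naive B cells of Peyer's patches were compared by RNA-Seq in 3 pools each. The authors removed adapters (cutadapt 1.9), estimated gene expression against mouse transcripts (NCBIm38 v75) by RSEM 1.2.25 (fragment length mean 180, SD 50), and deposited FPKM per gene with 2 decimals. The submitters' processing notes also list edgeR without a role, and whether values were normalized between pools is not given in the sources used here. FPKM was rescaled to TPM in each pool. The file holds no counts, so no count test was used. Depth was estimated from the step size of low FPKM values, using single-transcript genes. Between 68.4% and 73.9% of low values lay within 0.15 of a whole read, so depth is approximate. Symbols came from the NCBIM37 annotation (33398 of 39179 identifiers), and positions and promoters from RefSeq (GRCm38.p6). Myl12a and Ighd were not matched. Some markers of the lists are not reported here.

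limma 3.58.1 in R 4.3.3 (lmFit, eBayes with trend) was used without pairing, on genes reaching 1 TPM in 3 or more pools and a pseudocount of 1, which understates differences of weakly expressed genes. Fold ratios are ratios of mean TPM. Shares, sums and ratios within pools were compared with two-sided exact permutation tests (Python 3.11.15). The fit was run on simulated data in which 200 of 12785 genes were changed by 1 on the log2 scale. It recovered 72% of them, and 4.64% of the calls were false. In the data 65.6% of the genes tested were called, a share that the simulation does not represent. The 8 genes and the lists were chosen with earlier results of these data known. Named were the 8 genes, pathway genes called with an absolute log2 difference of at least 1, all genes of lists of up to 6, and the 3 nearest genes of S1pr1, S1pr2, Cd69 and Gna13; further pathway genes and the markers were named after their values were seen. The pools are described as biological replicates. Both populations have replicates numbered 1 to 3, but a pairing by number is not stated, so the numbers were not taken as pairs. Across genes, deviations of pools from their group means correlated by 0.022 to 0.083 for equal numbers. For unequal numbers they correlated by -0.075 to 0.030. Values this small do not decide whether the numbers mark pairs.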

Additional observations from a re-analysis of the deposited data

How the results depend on the processing

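The differences of S1pr1, S1pr2, S1pr3, S1pr4, Cd69, Gna13 and Arhgef1 kept direction and significance in limma under all alternatives computed: pseudocounts of 0.1 and 0.01, no filter, a mean of at least 5 TPM, FPKM as deposited, quantile normalization, scaling by median ratios, the replicate block, and omission of single pools. Ranges were -5.60 to -5.25 for S1pr1, 6.94 to 8.41 for S1pr2, 1.45 to 1.78 for S1pr3, -2.87 to -2.70 for S1pr4, -2.50 to -2.34 for Cd69, 1.23 to 1.43 for Gna13 and -1.03 to -0.94 for Arhgef1. For Gnai2 the call was lost with no filter (0.10), FPKM as deposited (0.051), median ratios (0.059) and the replicate block (0.10, adjusted p = 0.116), and the direction reversed under quantile normalization (-0.031), which moved the median of all genes from 0.031 to -0.056. Leaving out single pools gave 0.086 to 0.117 for Gnai2, with the call kept only without naive replicate 2, and -13.0 to 10.4 TPM for the difference in summed receptor TPM, which reversed without naive replicate 2. The sum also depended on the scaling, since FPKM as deposited separated the populations (-9.95 FPKM, exact permutation p = 0.1) and median ratios gave -11.8 (exact permutation p = 0.2), against -3.12 TPM (p = 0.9). The cause of these changes was not tested. The sum was added after seeing the data. The replicate block changed no other call among the 8 genes, and naive replicate 2 correlated slightly more with GC replicate 3 (0.030) than with its own number (0.022). The number of genes called lay between 6879 and 8530. Among pathway genes recomputed singly, Sphk2, Sgpl1, Sgpp1, Apom and Dnm2 lost their call in 1 or more alternatives, and Foxo1, Adrbk1 and Arrb2 gained one. Counts over lists moved further: 22 to 33 of the pathway genes were called higher in naive B cells, against 27. Depth limits S1pr2 in naive B cells and the other genes under 1 TPM.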
